A study of Mus musculus with 16 samples.

Results

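Reads that run across the terminal loop of a miRNA hairpin were collected from 16 small RNA libraries of mouse mesenchymal stem cells (MSCs) with intact, deleted or mutated Dicer. A read was taken if its insert, the sequence left after removal of the 3′ adapter, was 27 nt or longer, matched an annotated mouse miRNA hairpin without mismatch, and covered the midpoint of that hairpin with 5 nt or more on each side. The 16 libraries held 1114824 such reads of 1166 distinct sequences, out of 132629088 inserts of 27 nt or more and 1671738 reads of that length that matched a hairpin. They came from 293 of 1174 annotated hairpins. Some of these have near-identical copies, so reads that could not be told apart were counted for the copies together. That left 271 hairpins or sets of hairpins, of which 16 were such sets, with 17152 reads.

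All cells were C57BL/6 MSCs, with 2 libraries in each of 8 groups. Wild type cells (Dicer f/f) and knockout cells (Dicer -/-) carried mCherry, a red fluorescent protein, as control. In the remaining 6 groups Dicer -/- cells had received human Dicer (hsDicer) or hsDicer with a point mutation: D1320A, D1709A, both of these (D1320A/D1709A), K70A or Y971A/Y972A. The sources used here do not give the promoter that drives hsDicer or the amount of each protein. Whether the 2 libraries of a group stem from different cultures is not stated in the labels, and the spread that the p-values rest on may be technical.

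Dicer receives a precursor hairpin whose base has already been trimmed by Drosha, and cuts both strands near the terminal loop. The cuts free a 5p arm and a 3p arm, 1 of which usually becomes the mature miRNA, and a loop. Dicer has a pair of catalytic centres. RNase IIIA (changed in D1320A) cuts the strand of the 3p arm, and RNase IIIB (changed in D1709A) cuts the strand of the 5p arm. The helicase domain (changed in K70A) touches the loop side of precursors, and the PAZ domain (changed in Y971A/Y972A) holds the 3′ end of the precursor. A long read that crosses the loop is therefore read here as a precursor in which at least 1 of the cuts was not made. Its ends, where seen, are taken to show which. Whether trimming or breakage made some of these ends was not tested. Knockout replicate 2 also had 652 reads that stopped within 2 nt of the base before the usual 3p arm.

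The hairpins on which the results turn are shown here because the position of each read within them tells an uncut precursor from one cut on a single strand. The arms, as read most often in 18 to 26 nt reads of wild type and hsDicer libraries, are in capitals, and the stretch between them is the loop.
Mir16-1 hairpin: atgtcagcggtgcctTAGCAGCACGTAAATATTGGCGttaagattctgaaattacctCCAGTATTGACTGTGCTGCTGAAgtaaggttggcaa
Mirlet7i hairpin: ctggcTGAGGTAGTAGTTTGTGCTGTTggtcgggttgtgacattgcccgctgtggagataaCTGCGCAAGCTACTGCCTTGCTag
Mir31 hairpin: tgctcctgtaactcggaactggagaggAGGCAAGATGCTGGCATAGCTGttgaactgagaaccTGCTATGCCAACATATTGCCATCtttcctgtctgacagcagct
Mir26b hairpin: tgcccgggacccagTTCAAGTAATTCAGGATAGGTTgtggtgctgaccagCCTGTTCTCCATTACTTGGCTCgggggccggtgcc
On GRCm38, Mir16-1 lies at chr14:61631880-61631972 on the minus strand within an exon of the noncoding gene Dleu2. Mirlet7i lies at chr10:122985640-122985724 on the minus strand within an exon of D630033A02Rik, a transcribed processed pseudogene. Mir31 lies at chr4:88910557-88910662 on the minus strand within an exon of the lincRNA AL805899.1. Mir26b lies at chr1:74394310-74394394 on the plus strand within an intron of Ctdsp1.

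Examples of each kind of insert follow, with the loop in capitals, so that the ends can be set against the hairpins above. Positions are counted from 1 at the 5′ end of the annotated hairpin. The first 3 inserts begin at the base after the 5p arm, as they would with the 5p strand cut and the 3p strand uncut.
Mir16-1 insert, positions 38 to 80: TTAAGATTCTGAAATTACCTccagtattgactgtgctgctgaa
Mirlet7i insert, positions 28 to 78, 3′ end beyond the read: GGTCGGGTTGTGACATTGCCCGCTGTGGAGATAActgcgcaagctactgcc
Mir671 insert, positions 43 to 78: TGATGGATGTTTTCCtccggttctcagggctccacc
The next 3 begin at the 5p arm and stop in or at the end of the loop. They would do so with the 3p strand cut and the 5p strand uncut.
Mir31 insert, positions 28 to 61: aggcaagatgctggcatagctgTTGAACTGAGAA
Mir31 insert, positions 28 to 63: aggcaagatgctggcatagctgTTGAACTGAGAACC
Mir193a insert, positions 7 to 39: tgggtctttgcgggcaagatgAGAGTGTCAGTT
The last begins at the 5p arm and runs into the 3p arm past both cut sites, as an uncut precursor does.
Mir26b insert, positions 15 to 65, 3′ end beyond the read: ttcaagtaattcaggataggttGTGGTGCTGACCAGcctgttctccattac
Inserts longer than 41 nt can be read only in replicate 2, where the Mir16-1 insert had 9890 reads in D1320A, 2 in D1709A and 1 in hsDicer, and the Mirlet7i insert 3773, 0 and 0. In replicate 1 the read stops sooner: Mir16-1 inserts from 38 to 78 had 32144, 6 and 1 reads in these 3 groups, and Mirlet7i inserts from 28 to 68 had 11534, 1 and 0. The Mir671 insert had 3320 and 2090 reads in replicates 1 and 2 of D1320A, 3 and 129 in D1709A and 0 in hsDicer. The Mir31 insert ending at position 61 had 30761 and 16704 reads in D1709A, 30 and 9 in D1320A and 2 and 125 in hsDicer. The one ending at 63, the base before the usual 3p arm, had 11577 and 2802 in D1709A, 14 and 3 in D1320A and 1 and 166 in hsDicer. The Mir193a insert had 887 and 745 reads in D1709A and 0 in D1320A and hsDicer. The Mir26b insert was present in all 3 groups of replicate 2, with 13424 reads in D1320A, 16156 in D1709A and 30235 in hsDicer. Its form in replicate 1, from 15 to 55, had 33883, 28656 and 2181 reads, so the order of the groups differed between the replicates. Mir671 (chr5:24592114-24592211, GRCm38, plus strand, within an exon of Chpf2) was chosen for display after its values were seen.

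The libraries held 10331036 (knockout, replicate 1) to 20502254 (wild type, replicate 2) inserts of 15 nt or more, and levels are given as CPM, with these inserts as the total. Reads were 41 nt long in every replicate 1 library and 51 nt in every replicate 2 library. The 3′ end of an insert was seen up to 36 nt in the first and 46 nt in the second, so values are given for each replicate. Inserts of 37 to 40 nt in replicate 1 and 47 to 50 nt in replicate 2 were lost where too few adapter bases remained to be recognised. RNA of 15 to 50 nt had been isolated from a gel. Over the 218 hairpins with usual ends on both arms, the distance from the 5p start to the 3p end had a median of 60 nt (52 to 100 nt), so that an uncut precursor lay outside that range of lengths. The mesenchymal marker miRNAs fixed for the check of cell type all had arm reads, 8 of 8 hairpins, at 256242 and 167449 CPM in the wild type libraries. Of the neuron markers, Mir124a-1, Mir124a-2 and Mir124a-3 were at 0 in every library, but Mir9-1, Mir9-2 and Mir9-3 had arm reads. Of the blood markers, Mir223 was at 0, but Mir142 and Mir155 had arm reads, and Mir155 had 7864 loop-spanning reads. Markers of pluripotent cells (Mir294, Mir295), muscle (Mir206) and endothelium (Mir126a) had arm reads too, so markers of other cell types were not all absent. The liver marker, Mir122, had 37 loop-spanning reads in D1320A replicate 1. Since these are bulk samples, fewer precursors per cell and fewer cells that hold them cannot be told apart.

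6 of the 8 replicate 1 libraries were sparse and stood apart from the rest. In all but D1320A and D1709A of replicate 1, the number of distinct inserts with 10 or more reads was 0 to 15. All other libraries had 107 or more. In the sparse libraries the 5 most frequent inserts made up 46.9% to 99.8% of the loop-spanning reads. This share does not set them apart, since D1320A and D1709A of replicate 1 had 47.4% and 63.7%. In the wild type library of replicate 1, which had 32 such reads in all, 29 (90.6%) had a sequence that was counted 1000 times or more in another replicate 1 library. The part that reads shared between libraries play in these values was not tested. The number of hairpins with 100 or more reads in both replicates was 67 in D1320A, 48 in D1709A, 11 in D1320A/D1709A, 7 in the knockout, 6 in hsDicer, 6 in K70A, 4 in Y971A/Y972A and 0 in wild type. Hairpin by hairpin, D1320A and D1709A are therefore the groups in which the 2 replicates can be set side by side. Reads carry no molecular identifiers, so a high count of 1 insert need not mean many molecules, and the intervals below cover counting error only.

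By group mean, loop-spanning reads were fewest in cells with their own Dicer and most frequent in D1320A and D1709A, the mutants with a single changed catalytic centre. In replicate 2, however, the knockout (12263 CPM) lay above D1320A (7506 CPM) and D1709A (7710 CPM). These 2 mutants were not tested against the knockout. Uncut precursors lay outside the gel range, and the part this plays in the order of groups was not tested. Wild type libraries had 1.85 CPM in replicate 1 and 718 CPM in replicate 2 (32 and 14720 reads), and knockout libraries had 2946 and 12263 CPM (30432 and 195813 reads). The knockout exceeded wild type in both replicates, by 10.56 and 4.09 on the log2(CPM + 0.1) scale. The mean difference was 7.33 and the groups did not overlap, with p = 0.333 in the 2-sided exact permutation test, the smallest that 2 against 2 libraries allow (adjusted p = 0.889 over 8 comparisons). Here and below, therefore, groups that do not overlap still do not pass a threshold of 0.05 in a test of 1 value per library.

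The spread between replicates was wide in most groups. The 2 hsDicer libraries had 821 and 5224 CPM, those of D1320A 16553 and 7506 CPM, and those of D1709A 11072 and 7710 CPM. As means these were 3023 ± 3114 CPM (SD, n = 2) in hsDicer, 12029 ± 6398 in D1320A and 9391 ± 2377 in D1709A. Both catalytic mutants lay above both hsDicer libraries, by 2.43 (4.33 and 0.52 in the 2 replicates) and 2.16 (3.75 and 0.56) on the log2 scale, each with exact permutation p = 0.333. The difference between the 2 mutants, 0.27, was smaller than the spread within them (exact permutation p = 1).

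The remaining groups overlapped hsDicer in level. D1320A/D1709A had 2260 and 4609 CPM, K70A 1552 and 1251 CPM, and Y971A/Y972A 1072 and 1033 CPM. Their log2 differences from hsDicer were 0.64, -0.57 and -0.98, each with exact permutation p = 1. D1320A/D1709A also overlapped the knockout (-0.90, exact permutation p = 0.667). A p that misses the threshold does not show that these levels were alike: the differences of K70A from hsDicer ranged from -1.91 to 0.76 as single libraries were left out.

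**Figure D1:**
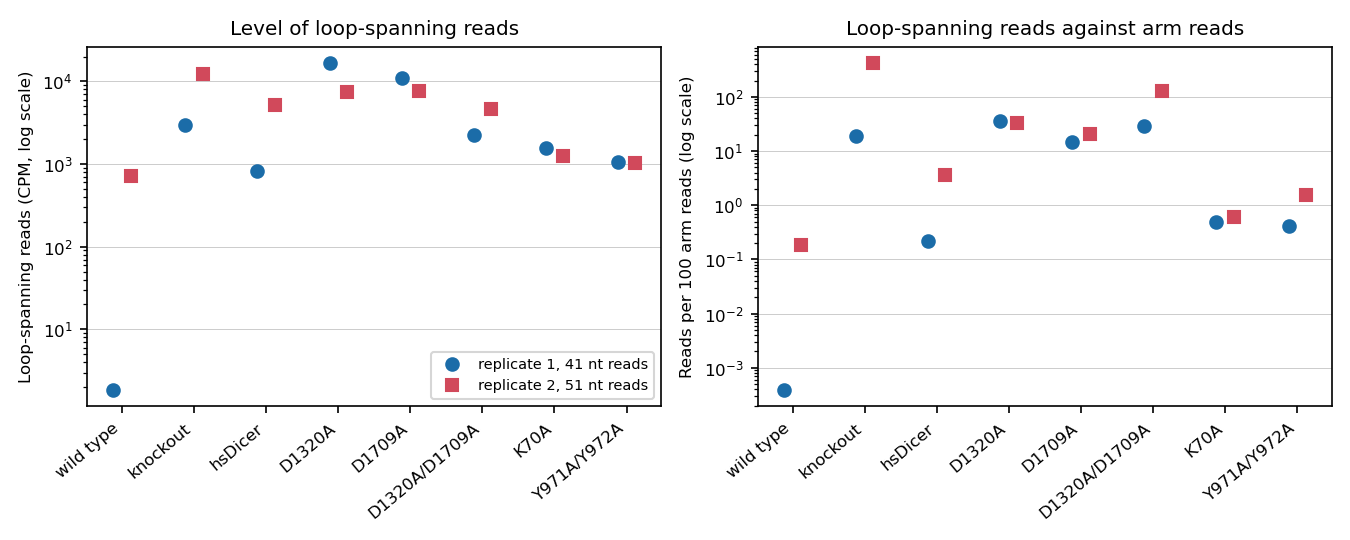
CPM of loop-spanning reads (left) and per 100 arm reads of 18 to 26 nt (right), both on a log axis, with 1 point per library and replicate 1 (41 nt reads, circles) apart from replicate 2 (51 nt reads, squares). Wild type replicate 1 lies lowest on the left at 1.85 CPM and D1320A replicate 1 highest at 16553 CPM, and on the right D1320A, D1709A and D1320A/D1709A lie above both hsDicer points.

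Set against the mature-sized reads of the same hairpins, the groups separated further. Per 100 arm reads of 18 to 26 nt there were 0.000388 and 0.188 loop-spanning reads in wild type, and 19.1 and 418 in the knockout. hsDicer had 0.214 and 3.59, D1320A 35.3 and 33.7, D1709A 14.8 and 20.5, and D1320A/D1709A 29.4 and 127. The helicase and PAZ mutants stayed low, at 0.498 and 0.603 in K70A, and at 0.414 and 1.52 in Y971A/Y972A. Each of the 3 catalytic mutants lay above both hsDicer libraries, by 5.30 (D1320A), 4.31 (D1709A) and 6.12 (D1320A/D1709A) on the log2 scale (exact permutation p = 0.333, adjusted p = 0.533 over 8 comparisons). The arm reads in the denominator differ between groups too, so this ratio moves with the loss of mature miRNA as well as with loop-spanning reads.

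The start of the reads set D1320A apart from all other groups. Starts were classed against the usual ends of each hairpin with a window of 2 nt, over the 226 hairpins or sets that had them. In D1320A, 57.0% of reads in replicate 1 (95% exact binomial interval 56.8% to 57.2%) and 52.1% in replicate 2 (51.7% to 52.4%) started just after the 5p cut, a mean of 54.5% ± 3.49 (SD, n = 2). In the 2 hsDicer libraries these shares were 0.0592% and 0.262%. The other groups had at most 1.75%, reached in K70A replicate 2, except for wild type replicate 1, where 8 of 32 reads gave 25% with an interval of 11.5% to 43.4%.

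In the other groups most reads started at the 5p start, the end that Drosha makes. This share was 71.9% (of 32 reads) and 94.8% in wild type, below the knockout by 28.1 and 3.75 percentage points (exact permutation p = 0.333, adjusted p = 0.533). It was 99.97% and 98.5% in the knockout, 99.9% and 98.5% in hsDicer, 98.6% and 99.5% in D1709A, 99.9% and 95.7% in K70A. Y971A/Y972A had 99.9% and 96.6%. In D1320A it was 42.2% and 45.5%, a difference from hsDicer of -57.8 and -53.0 percentage points in the 2 replicates. The mean difference was -55.4 points from hsDicer and -55.2 points from D1709A, in each case without overlap (exact permutation p = 0.333, adjusted p = 0.533). In D1320A/D1709A replicate 1 the share was 89.9%, and 10.1% of reads started inside the 5p arm. Those were 3747 reads of a single Mir350 insert, positions 37 to 70. In replicate 2 of that group 98.1% started at the 5p start.

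**Figure D2:**
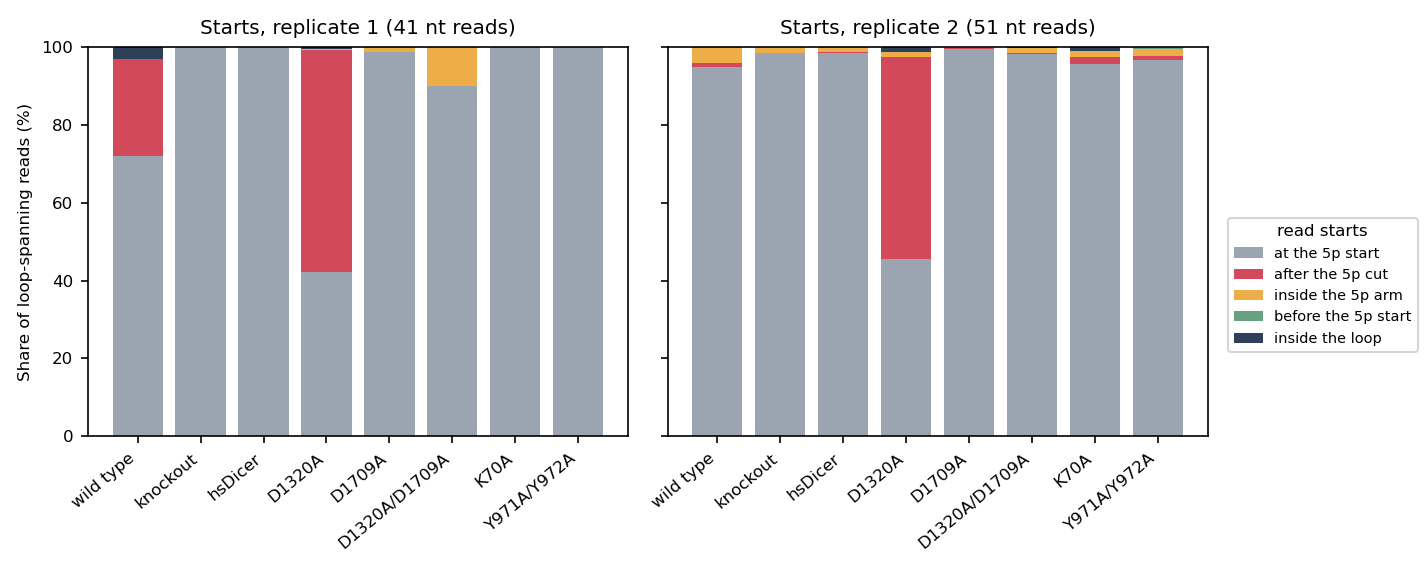
Share of loop-spanning reads (%) by where they start in the hairpin, 1 stacked bar per library, replicate 1 on the left and replicate 2 on the right. The 2 D1320A libraries had 57.0% and 52.1% of reads starting after the 5p cut, and the other library with a visible share in replicate 1, wild type, holds 32 reads.

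These starts lay at the cut site to the nucleotide. Of the D1320A reads that started after the 5p cut, 86.1% in replicate 1 and 77.2% in replicate 2 began exactly at the base after the usual 5p end, and 9.77% and 18.6% began 1 nt further. Where such a read ended at the 3p end, the product is named loop plus 3p here: the 3p arm with the loop still joined to it. Loop plus 3p reads made up 4.62% of D1320A reads in replicate 1 (11559 reads) and 39.9% in replicate 2 (36420 reads). With the centre of the folded loop (RNAfold) in place of the annotated midpoint they made up 17.6% and 71.7%. hsDicer had 1 and 144 such reads (0.00845% and 0.147%), and no group other than D1320A exceeded 1.48% (K70A replicate 2, 257 reads).

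The difference between the 2 D1320A replicates in this share goes with their read length. Over the 218 hairpins with both arms, loop plus 3p had a median length of 38 nt. It was 36 nt or shorter in 53, 37 to 40 nt in 125 and 41 nt or longer in 40, so in 41 nt reads the end of most such products is lost or not seen. When 1 to 4 adapter bases at the end of a read were also removed, D1320A replicate 1 rose to 339298 loop-spanning reads, of which 26.2% were loop plus 3p and 67.8% started after the 5p cut. Replicate 2 then had 41.3% loop plus 3p.

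In D1709A the 5p side of the precursor was the one left joined to the loop. Reads that start at the 5p start and stop just before the usual 3p start are named 5p plus loop: the 5p arm with the loop still joined to it. They made up 43.9% of D1709A reads in replicate 1 (62165 reads) and 34.2% in replicate 2 (27311 reads), 39% ± 6.83 (SD, n = 2). In the 2 hsDicer libraries there were 3 and 832 such reads (0.0254% and 0.848%), and in D1320A 126 and 287 (0.0504% and 0.314%). The difference of D1709A from hsDicer was 38.6 points and from D1320A 38.9 points, without overlap in either (exact permutation p = 0.333, adjusted p = 0.667 over 8 comparisons).

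Most of the D1709A product came from 1 hairpin. Without Mir31 the 5p plus loop share of D1709A was 5.94% in replicate 1 and 8.63% in replicate 2. Of the 218 hairpins with both arms, 122 had a 5p plus loop of 37 to 40 nt, lengths lost in replicate 1. That of Mir31 is 36 nt and was seen by both read lengths. The part this plays in the share held by Mir31 was not tested. High shares elsewhere were less even: Y971A/Y972A had 42.0% in replicate 1 and 5.13% in replicate 2. In its replicate 1 nearly all were 7936 reads of a single Mir31 insert, positions 28 to 63, and without Mir31 the shares were 0% and 2.08%. Wild type had 12.5% in replicate 1, on 4 reads, and 9.01% in replicate 2, on 1327 reads.

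The ends of the D1709A product were spread over several positions. Of D1709A reads that ended before the 3p cut, 50.8% and 63.3% in the 2 replicates stopped 2 nt short of the base before the usual 3p start, 25.8% and 17.0% stopped 1 nt short, and 22.7% and 18.9% stopped at it. For Mir31, position 61 held 30761 and 16704 reads, position 62 held 14684 and 3134, and position 63 held 11577 and 2802. The usual 3p arm of Mir31 starts at position 64. Because Mir31 makes up most of these reads, the profile of ends is largely its own.

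Lengths followed from these ends. In D1709A the most frequent length among inserts whose end was seen was 34 nt in both replicates, with 32556 reads (47.1% of those seen) and 16955 reads (50.0%). In D1320A it was 36 nt in replicate 1, the longest that 41 nt reads could show, and 43 nt in replicate 2, with 9979 reads (21.6%). The 43 nt reads include the Mir16-1 insert printed above. In the knockout the end was not seen in 99.97% and 96.2% of reads, and in hsDicer in 99.9% and 95.6%, while in D1320A these shares were 88.7% and 49.5% and in D1709A 51.3% and 57.6%.

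**Figure D3:**
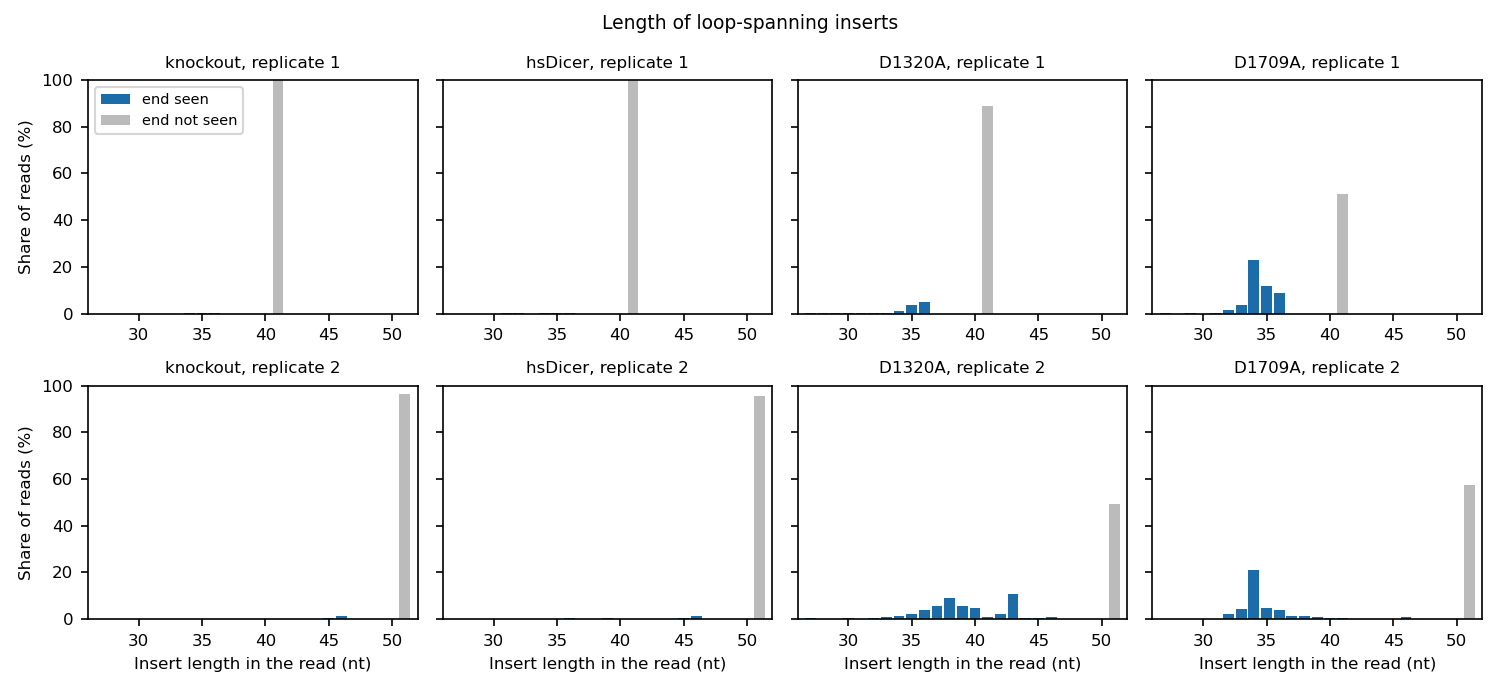
Share of loop-spanning reads (%) by insert length in the read (nt) in the knockout, hsDicer, D1320A and D1709A, replicate 1 above and replicate 2 below. Blue bars are inserts whose 3′ end was seen and grey bars inserts that ran to the end of the read; D1709A peaks at 34 nt in both replicates and D1320A replicate 2 has a peak at 43 nt.

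The 10 hairpins with usual ends and the highest mean CPM held 713766 reads, or 64% of the total. They were Mir26b, Mir31, Mir21a, Mir196b, Mir16-1, Mirlet7c-2, Mir26a-2, Mir450b, Mir450-1 and Mir193a. Reads of most of them ran from the 5p start across the loop to the end of the read in many groups. Among reads within the midpoint rule, Mir16-1, Mirlet7c-2 and Mir31 were high in 1 catalytic mutant. Mir31 reads that the rule leaves out were high in D1320A, as given below.

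Mir26b, of the miR-26 family that is encoded within genes of the CTD small phosphatases, was the most abundant, with 243955 reads. Its levels were 0.231 and 63.2 CPM in wild type, 782 and 3686 CPM in the knockout, and 151 and 1612 CPM in hsDicer. They were 2405 and 1144 CPM in D1320A, 2239 and 1560 in D1709A, and 306 and 1239 in D1320A/D1709A. K70A had 611 and 321 CPM, while Y971A/Y972A had 128 and 235 CPM. Wild type was lowest in both replicates, and among the other groups the order differed between the replicates. In D1320A only 6.4% and 3.6% of Mir26b reads started after the 5p cut.

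Mir21a, a miRNA abundant in fibroblasts, had 562 and 434 CPM in D1320A and 363 and 403 CPM in D1709A. Its hsDicer libraries had 8.4 and 526 CPM, its knockout libraries 0.2 and 1219 CPM, and its wild type libraries 0.1 and 122 CPM. In replicate 2 the knockout was highest, while in replicate 1 it held 2 reads. Of the Mir21a reads in D1320A, 0.0% and 6.4% started after the 5p cut. Mir196b, which lies within the HoxA cluster, had 719 and 373 CPM in D1320A, 364 and 397 in D1709A, 0.1 and 406 in hsDicer and 219 and 876 in the knockout, with 13.8% and 8.6% of D1320A reads after the 5p cut. Mir26a-2 had 0.1 and 1063 CPM in the knockout, against 274 and 359 in D1320A. Its share after the 5p cut in D1320A was 1.3% and 38.3%. Loop plus 3p of Mir26a-2 (38 nt) and of Mir21a (37 nt) has a length lost in replicate 1. For these 2 hairpins a difference between the replicates cannot be told apart from that loss.

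Mir16-1, of the miR-15/16 family known for restraining the cell cycle, was high in D1320A alone. It had 41248 and 12642 reads there (2731 and 1038 CPM), 1 and 184 in hsDicer, 43 and 133 in D1709A, and 0 and 39 in D1320A/D1709A. Wild type had 2 and 66 reads, the knockout 1 and 163, K70A 6 and 43 reads, while Y971A/Y972A had 2 and 27. Both D1320A libraries lay above the other 14. After the 5p cut started 99.9% and 98.3% of its D1320A reads, and in replicate 2 the 43 nt insert reached to the 3p end. The fitted log2 difference of D1320A from hsDicer was 8.57 ± 3.28 (SE), with an adjusted p = 0.358 in edgeR's quasi-likelihood test and an unadjusted p = 0.0090. With the replicate number, and so the read length, as a term, the edgeR adjusted p was 0.0274.

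The let-7 family, miRNAs that promote differentiation and whose precursors have long loops, showed the same pattern across members. 11 of 12 let-7 hairpins had loop-spanning reads, 89297 in all (8.01% of the total). In D1320A there were 68625 and 9098 reads (4543 and 747 CPM), against 9 and 1286 in hsDicer and 1011 and 796 in D1709A. Of the D1320A reads, 98.8% and 92.9% started after the 5p cut. Among let-7 hairpins with 100 or more reads, that start held the majority in 9 of 9 in replicate 1 and in 6 of 8 in replicate 2.

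Within the family Mirlet7i was the clearest case. It had 11845 and 3821 reads in D1320A (784 and 314 CPM) and at most 2 reads in every other library. A count of 0 allows up to 3 reads, which is 0.146 to 0.290 CPM depending on the library. Starts after the 5p cut made up 98.8% and 100% of these reads. Mirlet7c-2 had 41495 and 3478 reads in D1320A (99.6% and 93.1% after the cut), 4 and 689 in hsDicer, and 977 and 559 in the knockout. Mirlet7a-1 had 6696 and 188 reads in D1320A, 99.6% and 99.5% of them after the cut. Loop plus 3p of Mirlet7c-2 (47 nt) and of Mirlet7a-1 (50 nt) has a length lost in replicate 2. Their lower counts there cannot be told apart from this loss, which also bears on the let-7 count of that replicate. Loop plus 3p of Mirlet7b (53 nt), Mirlet7d (54 nt), Mirlet7f-1 (55 nt), Mirlet7i (56 nt) and Mirlet7g (57 nt) lies outside the gel range. The part this plays in their counts was not tested. Mirlet7e differed: it had 569 and 305 reads in D1320A, of which 59.2% and 0% started after the cut, and was highest in D1320A/D1709A replicate 1, with 4228 reads at the 5p start.

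**Figure D4:**
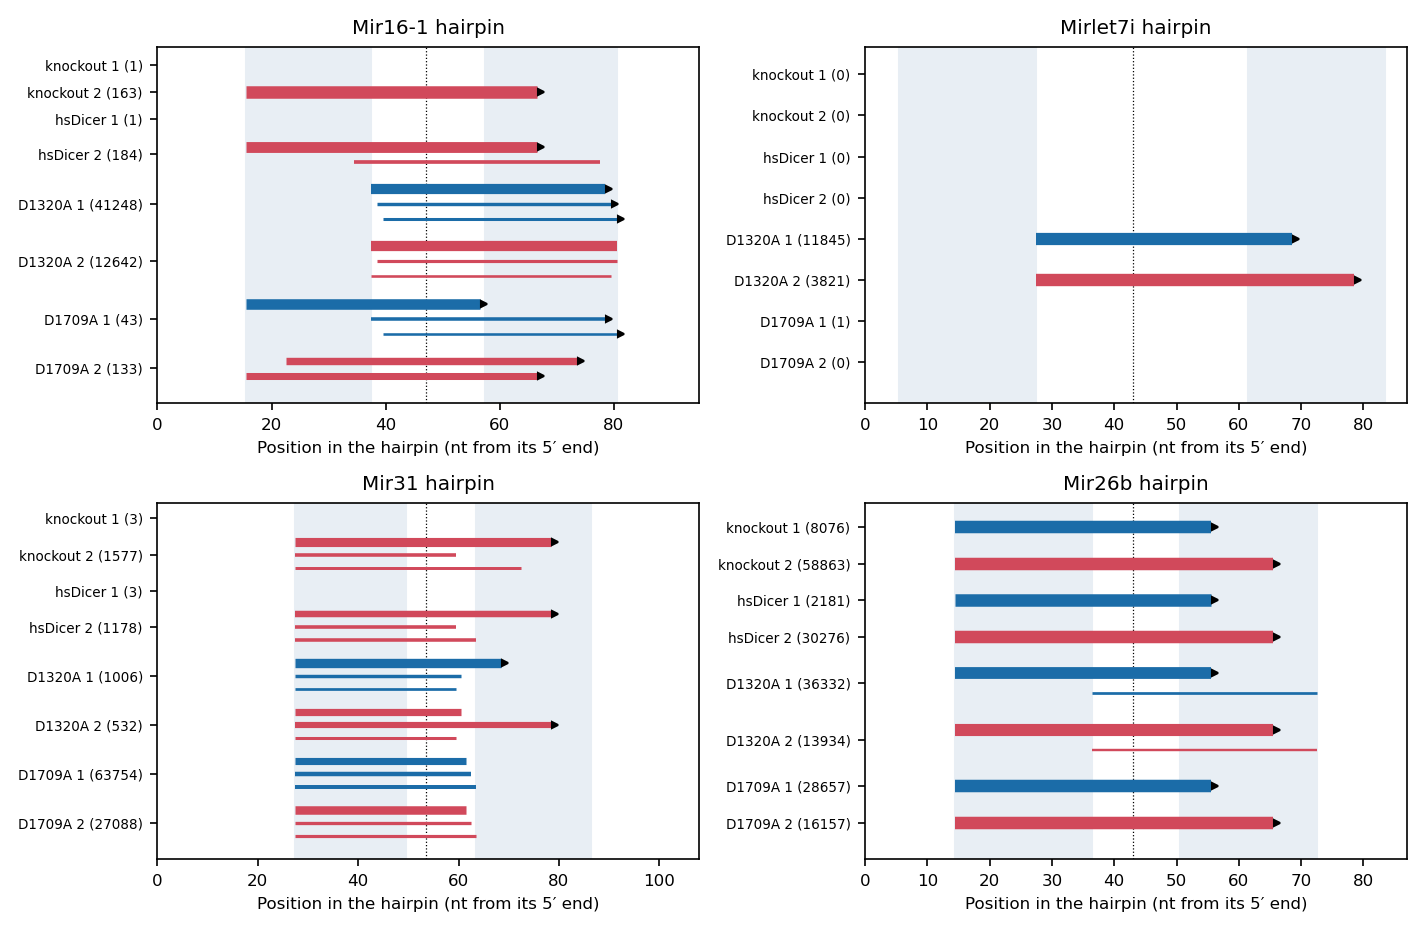
Most frequent inserts (up to 3 per library) drawn along the Mir16-1, Mirlet7i, Mir31 and Mir26b hairpins, with position in nt from the 5′ end on the x axis, 1 row per library with its reads in brackets, and line width growing with the share of those reads. Shaded bands are the usual arms, the dotted line the midpoint, and arrowheads inserts whose 3′ end was not seen. Mir16-1 and Mirlet7i inserts of D1320A begin after the 5p arm, Mir31 inserts of D1709A stop before the 3p arm, and the widest Mir26b lines run from the 5p start in all 4 groups.

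Mir31, a miRNA of mesenchymal and epithelial cells, was the mirror image among reads within the midpoint rule. It had 63754 and 27088 reads in D1709A (4981 and 2615 CPM), 3 and 1178 in hsDicer (0.208 and 62.7 CPM), and 1006 and 532 in D1320A. The knockout had 3 and 1577 reads, wild type 3 and 881, D1320A/D1709A 3 and 895, K70A 31 and 358 reads, while Y971A/Y972A had 7944 and 781. Both D1709A libraries lay above all others. Of their reads, 90.5% and 84.0% ended before the 3p cut. The fitted log2 difference from hsDicer was 6.91 ± 2.50 (SE), with adjusted p = 0.220 in edgeR's quasi-likelihood test (unadjusted p = 0.0058), and that of D1320A from D1709A was -6.11 ± 2.41 (adjusted p = 0.357). With the replicate number as a term, the edgeR adjusted p of D1709A against hsDicer was 0.00361.

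The rule on the midpoint shapes what is seen of Mir31. Its loop plus 3p product begins at position 50, and the midpoint of its 106 nt hairpin lies at 53.5, so this product misses the margin of 5 nt and is not among the reads above. Counted apart, Mir31 reads that started after the 5p cut numbered 86253 and 115051 in D1320A (5711 and 9449 CPM), 7 and 105 in hsDicer and 29 and 225 in D1709A. The most frequent insert ran from 50 to 86.
Mir31 insert outside the margin, positions 50 to 86: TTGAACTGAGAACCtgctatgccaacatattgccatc
It had 94311 reads in D1320A, 219 in D1709A and 44 in hsDicer. Its length of 37 nt is lost in replicate 1, so all reads of this insert are of replicate 2. With the reads counted apart, Mir31 was high in both single mutants. Its fitted difference of D1320A from D1709A above covers only reads within the rule. Of the 218 hairpins with both arms, loop plus 3p meets the margin in 180 and 5p plus loop in 205.

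Mir193a, which lies in no annotated gene of its strand, also gave the 5p plus loop product in D1709A. It had 2474 and 2004 reads there, of which 89.1% and 49.7% ended before the 3p cut. D1320A/D1709A had more, 2494 and 6587 reads, and in replicate 1 the most frequent insert there ran from the 5p start with its end not seen (2493 reads). Mir450b and Mir450-1, neighbours on the X chromosome, had no library above the others in both replicates: Mir450b reached 6334 reads in K70A replicate 1 and 6151 in the knockout of replicate 2, and Mir450-1 reached 3558 in D1320A of replicate 1 and 6435 in the knockout of replicate 2.

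Hairpins with 100 or more reads in both D1320A libraries numbered 67. In 20 of them most reads started after the 5p cut in both replicates, in 31 in neither, and in 16 in 1 of the 2. The 20 included Mir16-1, Mir15a, Mir140, Mir222, Mir27a, Mir24-1, Mir30a, Mir671, Mir93 and 6 let-7 hairpins. The 31 included Mir26b, Mir21a, Mir196b, Mir26a-2 and Mir193a. They also held Mir31 and Mir20a, whose loop plus 3p product the midpoint rule leaves out, so their place in this set follows from the rule. The median loop was 18 nt in the first set and 15 nt in the second, and the median precursor 63 and 59 nt. The midpoint rule bears on which products are counted. Among the 53 hairpins whose loop plus 3p meets the margin, the counts were 17, 22 and 14. In the first 2 of these sets the medians were again 18 and 15 nt for the loop, and 63 and 59 nt for the precursor. Reads of the lengths lost in replicate 1 could not add to a majority there, while reads of longer products could. The part this plays in the medians was not tested.

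Several of the 20 showed the whole product in replicate 2. Mir140, a miRNA of cartilage, had 2729 and 2263 reads in D1320A, of which 100% and 98.8% started after the cut, and 97.3% in replicate 2 ended at the 3p end. Mir30a had 367 and 2788 reads, 90.2% and 98.6% of them after the cut. Its most frequent insert of replicate 2 was 39 nt long with 2724 reads. Loop plus 3p of Mir140 (40 nt) and of Mir30a (39 nt) has a length lost in replicate 1. The lower count of Mir30a there cannot be told apart from that loss. Mir671 had 5030 and 3090 reads, 97.8% and 91.1% after the cut, all of which also ended at the 3p end. Its loop plus 3p product is 36 nt long and was seen whole by both read lengths.

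In D1709A, 48 hairpins had 100 or more reads in both libraries. Only Mir31, Mir99b and Mir30d had most reads ending before the 3p cut in both, 36 had not in either, and 9 had in 1. Mir99b had 198 and 655 reads with 61.6% and 55.6% ending there, and Mir30d 412 and 201 reads with 50.2% and 55.7%. With 1 to 4 adapter bases also removed, hairpins with 100 or more reads in replicate 1 that mostly ended before the 3p cut rose from 8 of 77 to 24 of 90, and in D1320A those that mostly started after the 5p cut rose from 29 of 98 to 61 of 116. In replicate 2 the numbers stayed close, 15 of 69 after 15 of 68 and 41 of 83 after 43 of 82.

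**Figure D5:**
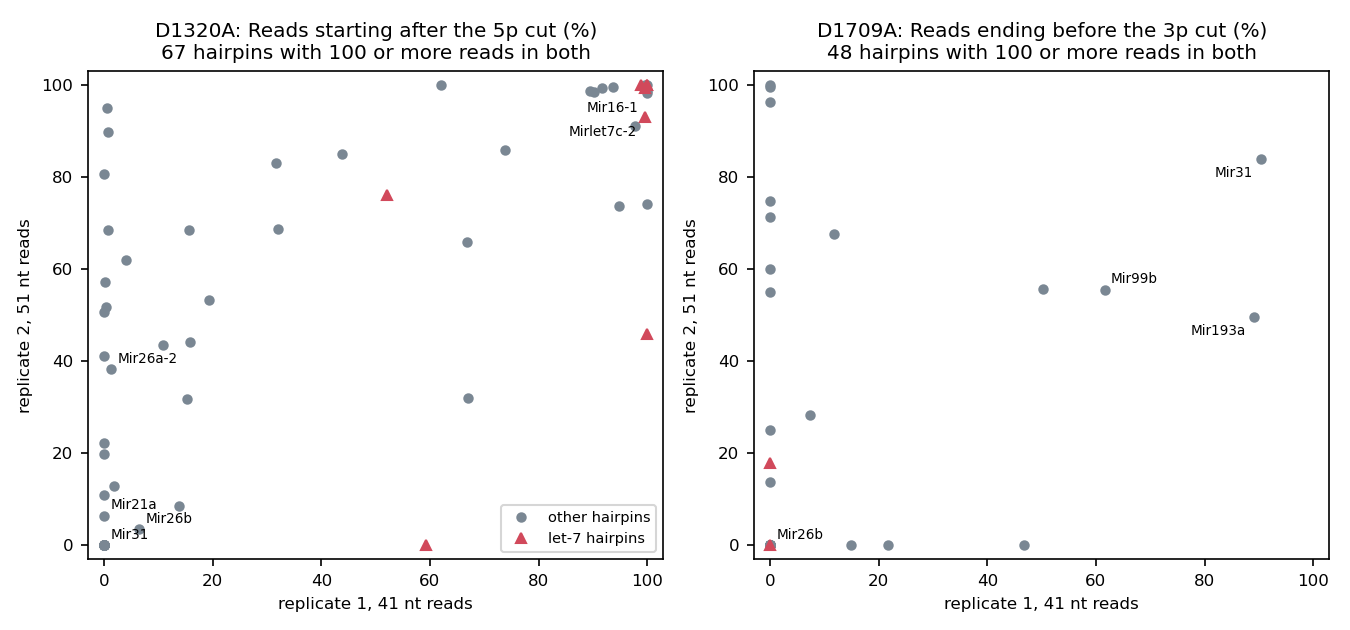
Each point is a hairpin with 100 or more reads in both libraries of the mutant, with the percent of its reads that start after the 5p cut in D1320A (left, 67 hairpins) or end before the 3p cut in D1709A (right, 48 hairpins), replicate 1 on the x axis and replicate 2 on the y axis; triangles are let-7 hairpins. 20 hairpins on the left and 3 on the right lie above 50% on both axes.

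The miR-17-92 cluster and its paralogs, known for promoting growth, had both kinds of start in D1320A. 9 of 15 hairpins had loop-spanning reads, 40368 in all (3.62%). In D1320A 14.7% of reads in replicate 1 and 69.0% in replicate 2 started after the 5p cut. Mir20a had 4258 and 1217 reads in D1320A, all at the 5p start, but its loop plus 3p product misses the midpoint margin and could not be counted. Mir93 had 522 and 1620 reads there with 89.5% and 98.8% after the cut, and in D1709A 0% of its 86 reads in replicate 1 and 72.0% of its 379 reads in replicate 2 ended before the 3p cut. Mir106b had 57.2% of 166 reads after the cut in D1320A replicate 2 and 0.13% of 768 in replicate 1. In D1709A, 0% of 692 Mir106b reads in replicate 1 and 74.8% of 147 in replicate 2 ended before the 3p cut. Loop plus 3p of Mir106b (39 nt) and Mir93 (40 nt) has a length lost in replicate 1, as has 5p plus loop of Mir106b (40 nt) and Mir93 (39 nt). So has loop plus 3p of Mir19a (37 nt), Mir19b-1 (38 nt) and Mir25 (37 nt). The lower shares in replicate 1, that of the list included, and the lower D1320A count of Mir93 there cannot be told apart from this loss.

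The list of miRNAs abundant in mesenchymal cells contributed 296798 reads (26.6%) from 32 of 33 hairpins. Its D1709A reads, 81898 and 39336, ended before the 3p cut in 74.4% and 63.8%, and most of them were of Mir31, a member of this list. Without Mir31 the shares were 18.1% and 19.2%. Of the list's hairpins with 100 or more reads in D1709A, 3 of 20 in replicate 1 and 5 of 17 in replicate 2 mostly ended there. In D1320A 23.6% and 38.4% of its 30856 and 14632 reads started after the 5p cut. The midpoint rule leaves out the Mir31 reads with this start, 86253 and 115051 in D1320A. These 2 shares therefore follow in part from the rule. Mir125b-1, also a member, had 3119 and 265 reads in D1320A, none after the cut, but its loop plus 3p product also misses the midpoint margin. Precursors known to bypass Drosha or to carry a cap (mirtrons and capped hairpins) gave 216 reads from 2 of 19 hairpins. Of these Mir320 had 215, in replicate 2 of the knockout (91), D1320A (59), D1320A/D1709A (13) and Y971A/Y972A (52), and Mir702 had 1. Mir484 had none. Mir451a, the precursor cut by Ago2 instead of Dicer, had 283 reads, all of 1 insert of 29 nt, with 183 in D1709A replicate 2, 63 in D1320A replicate 1, 32 in hsDicer replicate 2 and 5 in D1709A replicate 1.

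Tested hairpin by hairpin, no loop-spanning count passed in the fit on group means alone. A table of 877 features (247 hairpins by loop-spanning reads and 630 arms by 18 to 26 nt reads) was fitted with edgeR's quasi-likelihood test, with an adjusted p under 0.05 as the call. Of the 247, 0 were called in each of the 8 comparisons. The share of all features called higher was 0% in 7 comparisons and 0.456% in D1320A against D1709A. The share called lower was 2.51% in the knockout against wild type. Against hsDicer it was 0.798% in D1320A, 1.94% in D1709A, 3.88% in D1320A/D1709A and 0% in K70A and Y971A/Y972A. It was 0.342% in D1320A against D1709A and 0% in D1320A/D1709A against the knockout. At an unadjusted p under 0.05 there were 5 hairpins in the knockout against wild type. Against hsDicer there were 4 in D1320A, 1 in D1709A, 0 in D1320A/D1709A, 0 in K70A and 1 in Y971A/Y972A. D1320A against D1709A gave 5 and D1320A/D1709A against the knockout 0. Each of these counts, out of 247, lies below the share of 0.05 that such a threshold passes with no difference. The share over all features at this threshold is not given, so the counts are not read as hits. The common biological coefficient of variation was 2.289, and the spread of each feature was taken wholly from the trend shared by all. The replicate number coincides with read length in all groups, and with it as a term edgeR called 1 hairpin each in the knockout against wild type (Mir26b), D1320A against hsDicer (Mir16-1) and D1709A against hsDicer (Mir31). Of the same 247 hairpins, DESeq2 called 34 to 114 per comparison and limma-voom 0 to 17. DESeq2 set its own scaling between libraries instead of the insert totals, so more than the tool differed. The share of all 877 features called by these tools is not given, so their counts are not read as particular to loop-spanning reads.

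The hairpin closest to a call in the knockout against wild type among those named was Mir26b, with a fitted log2 difference of 6.14 ± 2.06 (SE) and adjusted p = 0.0842 in edgeR's test (0.00826 with the replicate number as a term). By list, the median fitted log2 difference of D1320A from hsDicer was 6.82 over 11 let-7 hairpins, 2.94 over 9 of the miR-17-92 list and 1.74 over 30 mesenchymal hairpins, beside 1.59 over all 247. The 11 let-7 values were all above 0, 2 with an unadjusted p under 0.05 and 0 called. For D1709A against hsDicer the medians were 0.44 (let-7), 1.54 (miR-17-92) and 1.43 (mesenchymal), beside 0 over all.

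D1320A/D1709A, with both catalytic centres changed, had few reads of either product. Loop plus 3p made up 0.00269% and 0.202% of its reads and 5p plus loop 0.00806% and 0.449%. Its ends were not seen in 81.6% and 93.6% of reads. As in the knockout, its reads mostly ran from the 5p start, and its most abundant hairpin in both replicates was Mir26b, with 5030 and 23552 reads. The shares of starts at the 5p start lay 5.21 points below those of the knockout on average, without overlap (exact permutation p = 0.333, adjusted p = 0.533), of which the Mir350 insert in replicate 1 makes the larger part.

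K70A and Y971A/Y972A had loop-spanning reads that mostly ran from the 5p start. In K70A replicate 2, 301 reads (1.75%) started after the 5p cut, 125 of them from Mir93, 89.9% of its 139 reads. Mirlet7c-2 in that library had 184 reads, 48.4% of them after the cut. In K70A replicate 1 the most frequent insert with a seen end was a 32 nt read of Mir199a-2, positions 31 to 62, with 4778 reads. Mir450b and Mir26b made up most of the rest in that library, with 6334 and 9040 reads. In Y971A/Y972A replicate 1, Mir31, Mir196b, Mir106b and Mir26b had 7944, 3868, 3644 and 2268 reads, and in replicate 2 781, 1057, 109 and 3834. The order of these hairpins differed between the libraries.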

How the data were processed

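Each deposited file lists distinct reads with their counts: per the files' values, the authors collapsed identical reads and deposited raw counts, with the 3′ adapter still attached. The sources used here do not name the tools. The labels' adapter was trimmed at a match of 12 bases within a read, or of 5 or more at its end. Inserts of 27 nt or more were placed, with no mismatch and in sense, on the 1174 hairpins that GENCODE release M21 annotates on GRCm38. Usual arm ends were the positions most used by 18 to 26 nt reads of the wild type and hsDicer libraries, with 10 or more reads and most arm reads at that start; 386 hairpins had them, 218 on both arms. Of 25 hairpins checked, 24 were identical in RefSeq's miRNA table; Mir320 had no entry. Margins of 5 to under 7 nt held 74902 of the reads taken, and 196755 reads lay just outside, at 3 to under 5 nt.

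Levels are CPM over inserts of 15 nt or more, compared as log2(CPM + 0.1) in 2-sided exact permutation tests, adjusted by Benjamini-Hochberg over 8 comparisons per measure. Counts of features with 20 or more reads were fitted with edgeR 4.0.16 in R 4.3.3 over all 16 libraries. The standard error of a log2 difference is the difference divided by the square root of F. In simulated data (D1320A against hsDicer, 877 features) 100 features were changed 8-fold and 100 others 64-fold. With a dispersion of 0.1 edgeR recovered 97% at 8-fold and 100% at 64-fold. With a dispersion of 2 it recovered 0 at either fold. The dispersion of the data, the square of the coefficient of variation of 2.289, lay above both settings. The simulated rates therefore do not give the recovery in these data. Alternatives used limma 3.58.1, DESeq2 1.42.0 and RNAfold 2.7.2; counting used Python 3.11.15 with numpy 2.4.6, pandas 2.3.3 and matplotlib 3.10.9.

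The members, lists and tests were chosen with earlier results of these data known. Named are the 10 hairpins with usual ends and the highest mean CPM, up to 4 hairpins called in each direction, the leading members of each list, and Mir451a, Mir320 and Mir484. Other hairpins were named after their values were seen: Mir671, Mir350, Mir199a-2, Mir99b, Mir30d, and the sets of D1320A and D1709A hairpins with most reads of 1 product.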

Additional observations from a re-analysis of the deposited data

Results flagged for a closer look

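The 2 values below come from reads that the midpoint rule leaves out, and they exceeded the same count in every other library. Mir31 reads of 27 nt or more that started after the 5p cut, with under 5 nt on one side of the midpoint, numbered 86253 in D1320A replicate 1 and 115051 in D1320A replicate 2. The same count in the 2 replicates was 2 and 142 for wild type, 9 and 74 for the knockout, 7 and 105 for hsDicer, 29 and 225 in D1709A, 0 and 189 in D1320A/D1709A, 17 and 11 in K70A and 12 and 129 in Y971A/Y972A.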

How the results depend on the processing

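With 2 against 2 libraries no exact permutation p can pass 0.05, so only directions can be compared here. The direction was kept under most alternatives, among them a least length of 30 nt, 10 nt on each side of the midpoint, the loop centre from RNAfold, other adapter settings and reads shortened to 41 nt: 96 of 96 for the level, 72 of 72 for the ratio to arm reads, 100 of 104 for the share starting at the 5p start, and 15 of 15 for each product share (leaving out a library apart). The 4 exceptions were small differences in the share starting at the 5p start. D1709A against hsDicer reversed to 0.0250 points with RefSeq ends and to 4.22 points with each distinct insert counted once, and the latter setting, chosen after seeing the data, also reversed D1320A/D1709A against hsDicer (2.46) and against the knockout (3.07); the cause was not tested. With the loop centre from RNAfold, D1320A had 63.5% and 78% of reads after the 5p cut and 17.6% and 71.7% as loop plus 3p.

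Leaving out each library in turn reversed some differences from overlapping groups. For the level the ranges were -0.69 to 1.98 (D1320A/D1709A against hsDicer), -1.91 to 0.76 (K70A against hsDicer), -2.31 to 0.36 (Y971A/Y972A against hsDicer), -0.30 to 0.84 (D1320A against D1709A) and -1.93 to 0.13 (D1320A/D1709A against the knockout). For the share starting at the 5p start they were -0.894 to 0.570 points (D1709A), -3.52 to 0.704 (K70A) and -2.57 to 0.710 (Y971A/Y972A), each against hsDicer. For the ratio to arm reads on the log2 scale they were -2.71 to 1.35 (K70A) and -2.18 to 1.89 (Y971A/Y972A) against hsDicer, and -2.77 to 1.68 (D1320A/D1709A against the knockout). The 5p plus loop share of D1320A against hsDicer ranged from -0.666 to 0.157 points and the loop plus 3p share of D1709A against hsDicer from -0.0173 to 0.121 points.

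Counts of called hairpins were 0 in the main edgeR fit and depended on the tool. DESeq2 also scaled the libraries in its own way instead of by insert totals. The share of all features called under these alternatives is not given, so the counts below are not particular to loop-spanning reads. DESeq2 called 114 (knockout against wild type), 34 (D1320A), 44 (D1709A), 37 (D1320A/D1709A), 40 (K70A) and 66 (Y971A/Y972A) against hsDicer, 46 for D1320A against D1709A and 42 for D1320A/D1709A against the knockout. limma-voom called 1 for the knockout against wild type, 15 for D1320A, 1 for D1709A and 1 for Y971A/Y972A against hsDicer, and 17 for D1320A against D1709A. The 15 included Mir16-1, Mir140, Mirlet7b, Mirlet7d, Mirlet7g and Mirlet7i. With TMM edgeR called 4 in the knockout against wild type, and leaving out each library gave 0 to 1 there (1, Mir26b, without wild type replicate 2). Split by start, 1 was called in D1320A against hsDicer, Mir16-1 after the 5p cut.

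The replicate number goes with the read length, and nothing in the labels ties same-numbered libraries to a shared culture: of 28 correlations of deviations between same-numbered libraries 17 were above 0.1, and the lowest was -0.0108. With the replicate block edgeR called 1 in the knockout against wild type (Mir26b), 1 in D1320A against hsDicer (Mir16-1) and 1 in D1709A against hsDicer (Mir31), and 0 in the other comparisons. The 6 sparse replicate 1 libraries limit what can be said hairpin by hairpin outside D1320A and D1709A, and 41 nt reads limit which ends are seen.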
